A study of Rattus norvegicus with 9 samples.

Results

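Interferon-stimulated genes were described in the renal outer medulla of the rat. The 34 genes of the set are induced by interferon in many cell types, and were taken from the expression table by gene name, ignoring case. Of the 30315 loci of the table, 32 carried the name of a member as their only name. Irf9 and Parp9 occurred only in rows joined with the names of other genes and were not taken as members. Where a name occurred in more than 1 row, as it did for Isg15, Mx2 and Ddx58, the row with the highest mean was used. Of the 32 genes, 31 had a mean of at least 1 FPKM (fragments scaled to transcript length and to the mapped fragments of the library) over the 9 libraries and entered the tests. Ifit1, with 0.142 FPKM on average, did not.

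Interferons are secreted when a cell senses foreign or misplaced nucleic acid, and type I interferons bind a receptor present on nearly every cell. Their receptor activates the kinases Jak1 and Tyk2, and a complex that holds Stat2 and Irf9 then binds the interferon-stimulated response element in promoters. Interferon gamma acts through another promoter element, the gamma-activated site. Among the induced genes are the sensors and transcription factors of the response itself, proteins that block viral replication, and the ubiquitin-like protein Isg15 with its enzymes. In the kidney, tubular, endothelial and immune cells can all carry such transcripts.

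Each of the 9 libraries came from a single MCW SS rat, an inbred strain whose blood pressure rises on a salty diet, with 3 rats per group; the labels give neither sex nor age. The HS_DT rats received GapmeRs (antisense oligonucleotides that direct cleavage of a matching RNA) against Dnmt3a and Tet3 into the kidney, at 2 mg/kg each, and a diet with 4% NaCl, for which the label gives a 7 without a unit. The HS_SCR rats received a scrambled GapmeR at 4 mg/kg and the same diet for 7 days. The 0.4% salt rats underwent the same surgery and were collected before GapmeR and diet would have begun. No group received diet or GapmeR alone, so HS_SCR minus 0.4% salt takes in the diet, a scrambled GapmeR and the time between. All 3 comparisons share groups, and a gene that is low in HS_SCR enters both HS_DT minus HS_SCR and HS_SCR minus 0.4% salt. The tissue was bulk outer medulla, in which fewer cells of a type and less RNA per cell cannot be told apart.

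No read counts were used, so absolute depth is unknown; relative depth, estimated from the loci of lowest value, was lowest in HS_SCR replicate 2 (0.762 times that of 0.4% salt replicate 1) and highest in HS_DT replicate 2 (1.38 times). Dnmt3a and Tet3, the intended targets, were not lower in HS_DT than in HS_SCR. Dnmt3a was listed at 8.72 to 11.02 FPKM in HS_DT, 5.75 to 10.3 FPKM in HS_SCR and 12.2 to 13.4 FPKM in 0.4% salt libraries. Tet3 was listed at 7.62 to 8.54, 5.04 to 8.20 and 8.47 to 9.64 FPKM in the same order of groups. The label names the GapmeRs that were given, and lower RNA of their targets than in HS_SCR was not seen. HS_DT therefore means throughout the libraries labelled so. The numbers in the titles fall into a lower series, with replicates 1 and 2 of HS_DT and of HS_SCR, and a higher series, with replicate 3 of both and all 0.4% salt libraries. The labels do not say what the 2 series stand for.

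The promoters of the set are shown because interferon signalling is known to reach its target genes through short promoter elements. RefSeq windows of build GRCr8, from 250 bases before to 50 bases after the transcription start, were matched for 23 of the 32 genes; Ddx58, Dhx58, Zbp1, Ifit1, Ifit2, Mx2, Isg15, Usp18 and Rtp4 had no window. The core of the interferon-stimulated response element was searched on both strands as GAAA, any 2 bases and GAAA again, and the core of the gamma-activated site as TTCNNNGAA, which is its own reverse complement. The first motif was present in 14 of the 23 windows (60.9%), against 3.92% of the 33469 rat windows of the same length. The second was present in 5 of the 23 windows (21.7%), those of Irf1, Oas1a, Bst2, Samhd1 and Parp14, against 8.87% of all windows. A match describes letters in a window and does not show that a factor binds there. The whole windows of Ifih1 (chr3:67683919-67684218, minus strand) and Irf1 (chr10:38417685-38417984, plus strand) follow, 5′ to 3′, because Ifih1 had the smallest p of the set between HS_SCR and 0.4% salt and Irf1 between HS_DT and 0.4% salt; capitals mark the response element core in Ifih1 and the gamma-activated site core in Irf1.
Ifih1: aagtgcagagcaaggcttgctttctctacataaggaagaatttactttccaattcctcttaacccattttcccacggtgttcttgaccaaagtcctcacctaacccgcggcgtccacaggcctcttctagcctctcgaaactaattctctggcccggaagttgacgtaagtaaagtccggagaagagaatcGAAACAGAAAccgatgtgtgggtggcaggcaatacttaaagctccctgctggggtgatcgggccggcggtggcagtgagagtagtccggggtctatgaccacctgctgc
Irf1: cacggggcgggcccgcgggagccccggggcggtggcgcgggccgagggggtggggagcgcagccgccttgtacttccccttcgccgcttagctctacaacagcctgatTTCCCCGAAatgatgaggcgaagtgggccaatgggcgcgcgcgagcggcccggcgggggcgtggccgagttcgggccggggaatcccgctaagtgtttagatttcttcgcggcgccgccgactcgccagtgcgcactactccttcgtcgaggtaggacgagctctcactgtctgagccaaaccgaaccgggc

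For other genes of the set the match is shown with 12 bases on either side, on the strand of the gene, with the matched letters in capitals; TTTC forms are matches of the opposite strand. The windows lie at chr1:205800071-205800104 (minus strand) for Irf7, chr1:241527270-241527303 (plus) for Ifit3, chr12:41330413-41330452 (plus) for Oas1a, chr6:48788246-48788279 (minus) for Rsad2, chr16:18255071-18255110 (minus) for Bst2, chr2:234005684-234005717 (plus) for Gbp2 and chr2:233910931-233910964 (plus) for Gbp5. In Oas1a and Bst2 a pair of matches overlap and form a single stretch.
Irf7: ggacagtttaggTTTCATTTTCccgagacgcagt
Ifit3: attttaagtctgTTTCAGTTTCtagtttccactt
Oas1a: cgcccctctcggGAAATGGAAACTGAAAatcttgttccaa
Rsad2: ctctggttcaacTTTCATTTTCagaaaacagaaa
Bst2: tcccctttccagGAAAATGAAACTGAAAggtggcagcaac
Gbp2: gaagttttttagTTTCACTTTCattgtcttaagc
Gbp5: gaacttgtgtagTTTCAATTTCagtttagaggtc

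**Figure D1:**
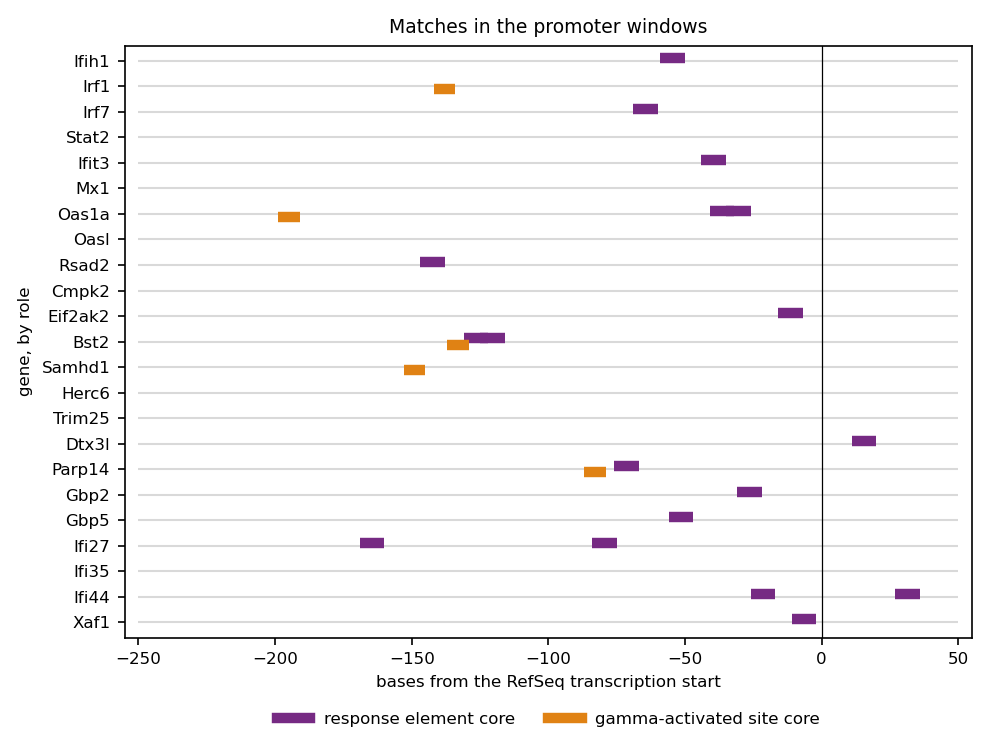
Positions of the response element core and of the gamma-activated site core, on either strand, in the promoter windows of the 23 genes with a window (x axis, bases from the RefSeq transcription start; y axis, genes by role). The response element core is drawn in 14 of the 23 windows and the gamma-activated site core in 5.

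All 31 tested genes were transcribed in the outer medulla of every group. Their mean over the 9 libraries ran from 4.40 FPKM for Zbp1 to 267 FPKM for Ifi27, with a median of 16.6 FPKM. Ifi27, a small protein of mitochondria and nuclear envelope, and Bst2 (tetherin, which holds budding virus at the cell surface), at 208 FPKM, stood above the others; 19 genes lay at 10 to 50 FPKM and 10 below 10 FPKM. On build rn5 of the table the genes lie on 11 chromosomes, some as neighbours: Rsad2 and Cmpk2 are 14187 bases apart, Gbp5 and Gbp2 78763 and Mx1 and Mx2 121677. Members of the Ifit, Mx, Oas and Gbp families resemble one another, and no source used here says how the authors' counting divided reads between such copies, so their levels are uncertain. Among the genes listed at a locus shared with others were Dtx3l (with Kpna1 and Parp9), Ifit2 and Ifit3 (with Lipa), Xaf1 (with Fbxo39) and Ifi44 (with Ifi44l). How reads were divided at those loci was not given either.

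The genes of the set varied most among the HS_SCR rats. The highest HS_SCR library exceeded the lowest by 2.09-fold in the median gene (range 1.17 to 7.32), and by more than 2-fold in 18 of 31 genes. The same ratio was 1.33 in HS_DT (1.02 to 1.67) and 1.11 in 0.4% salt (1.01 to 1.30). The median SD of log2(FPKM + 1) over the 31 genes was 0.20 in HS_DT, 0.54 in HS_SCR and 0.07 in 0.4% salt libraries, beside 0.11, 0.23 and 0.10 over all 14338 loci tested. The SD was largest in HS_SCR for 29 of the 31 genes, and for 68.5% of all loci tested. Ratios were largest for Mx2 (7.32), Zbp1 (7.12), Mx1 (5.89), Bst2 (4.75), Oas1a (4.21), Usp18 (4.05) and Isg15 (3.30).

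The HS_SCR libraries kept a common order across most of the set. Replicate 1 was the highest of the HS_SCR libraries for 27 of 31 genes, and replicate 3 was the lowest for 22 and replicate 2 for 8. Set against the range of the 3 libraries at 0.4% salt, HS_SCR replicate 1 lay above it for 20 genes and below it for 5, while replicate 2 lay below it for 23 and replicate 3 for 27. HS_DT replicate 1 lay above that range for 18 genes and below it for 8, HS_DT replicate 2 for 11 and 10, and HS_DT replicate 3 for 26 and 1. Trim25, Dtx3l and Ifih1 departed from the order, with their highest HS_SCR value in replicate 3. These orders and ranges were not counted over all loci, so they describe the libraries and are not shown to be particular to the set.

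**Figure D2:**
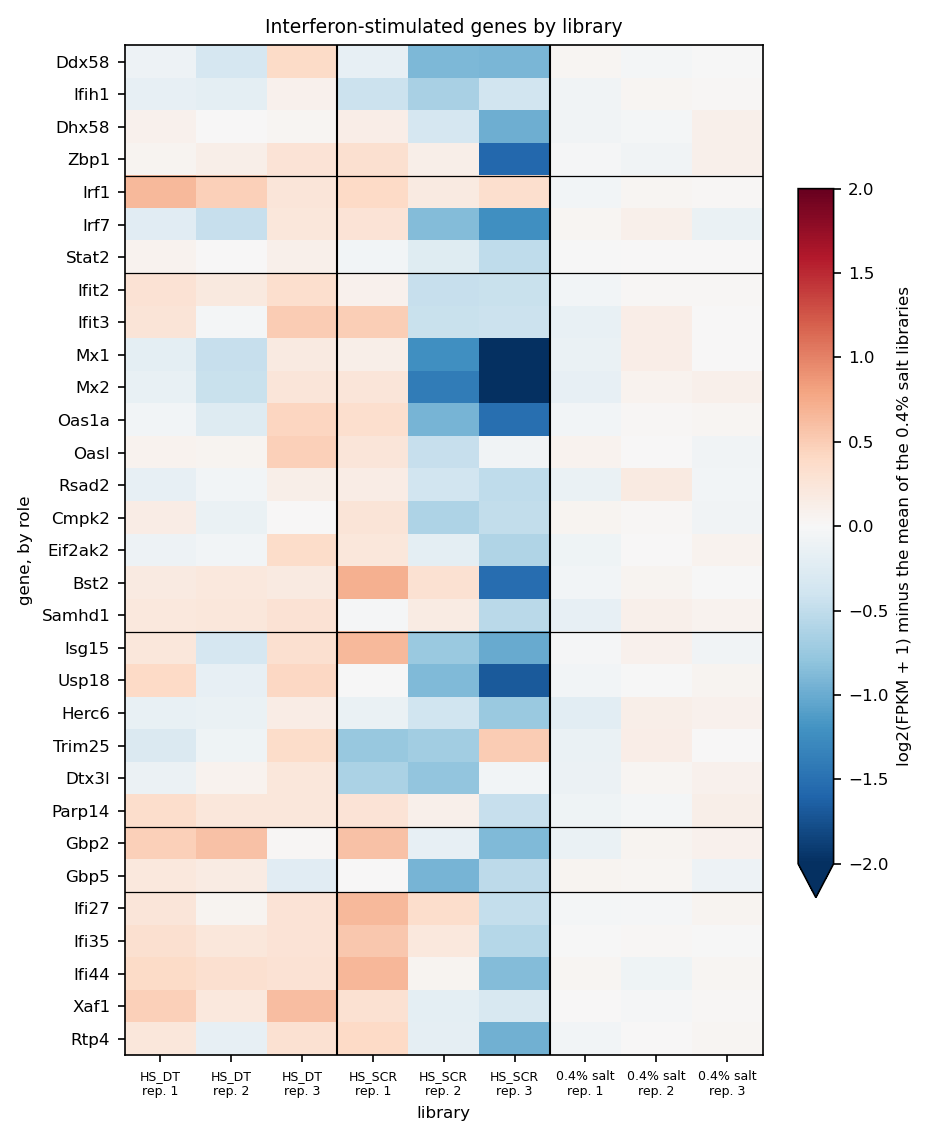
Level of each of the 31 genes (rows, by role) in each library (columns, HS_DT, HS_SCR and 0.4% salt, replicates 1 to 3), as log2(FPKM + 1) minus the mean of the 3 libraries at 0.4% salt. HS_SCR replicates 2 and 3 lay below the 0.4% salt range for 23 and 27 genes, and HS_SCR replicate 1 above it for 20. Shares over all loci were not counted.

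**Figure D3:**
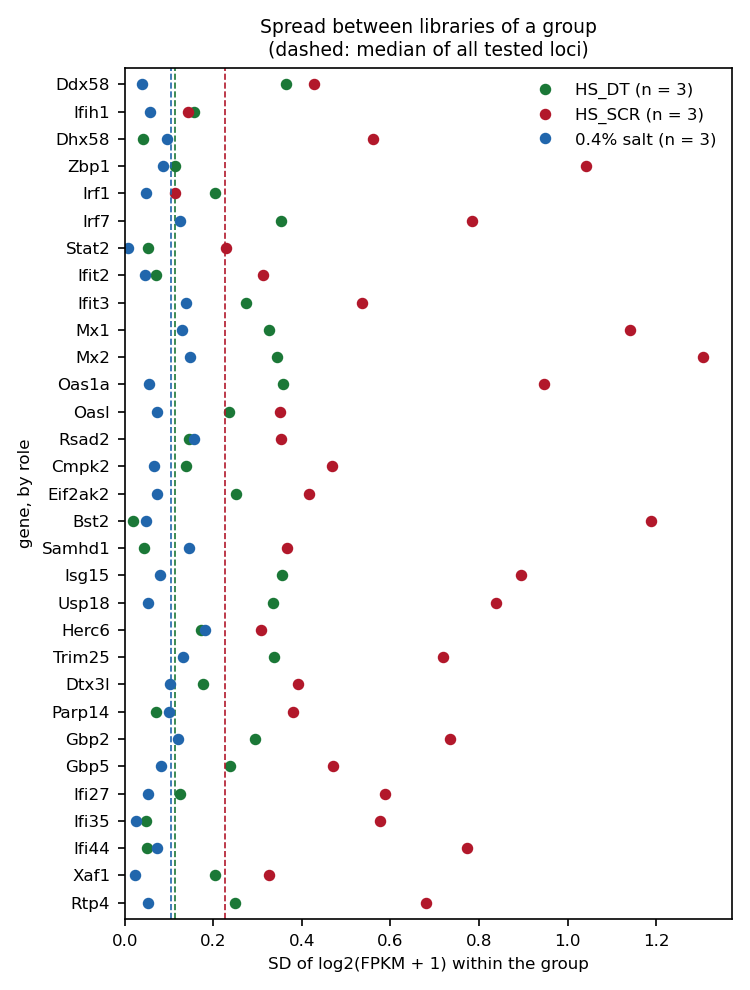
SD of log2(FPKM + 1) among the 3 libraries of each group (x axis) for each gene (y axis, by role); dashed lines give the median SD of all loci tested. The HS_SCR point is the rightmost for 29 of the 31 genes.

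The 3 comparisons were tested with limma on log2(FPKM + 1), with p adjusted by Benjamini-Hochberg over all 14338 loci. A gene is called where its adjusted p is under 0.05. For each gene p rests on 1 spread between rats, pooled over the 3 groups, although the groups differed in spread. Between HS_DT and HS_SCR all 31 genes had a log2 change above 0, the median being 0.38 (-0.00 over all loci, of which 7123 were above 0). Ifi27 was above 0 by 0.01 only, and its mean FPKM was lower in HS_DT (274) than in HS_SCR (286). None of the 31 passed an adjusted p of 0.05 by limma, and 0.00697% of all loci tested were called, so the test gave next to no calls for any kind of gene. With an unadjusted p under 0.05 there were 8 genes of the set, all higher in HS_DT (Ddx58, Ifih1, Stat2, Ifit2, Usp18, Dtx3l, Gbp5 and Xaf1), against 8.06% of all loci (1156 of 14338 higher, and 1576 lower). In 4 genes, Ifih1, Stat2, Ifit2 and Samhd1, every HS_DT library lay above every HS_SCR library, as it did in 9.10% of all loci. Without HS_SCR replicate 1 the count of called genes was 4 (Ifit2, Mx2, Usp18 and Xaf1), all higher in HS_DT by limma, against 0.508% of all loci called higher in that fit. Without HS_SCR replicate 3 it was 3 (Ifih1, Trim25 and Dtx3l), also higher, against 6.76% of all loci. Without HS_SCR replicate 2 it was 0, against 0% of all loci. Ifih1, Trim25 and Dtx3l had their highest HS_SCR value in replicate 3, so leaving out replicate 3 lowers their HS_SCR means by construction. Replicate 1 was the highest HS_SCR library for 27 of the 31 genes, so leaving it out lowers their HS_SCR means by construction. Within the lower series (2 libraries against 2) 22 genes were higher in HS_DT and 9 lower, with a median of 0.14. In the higher series HS_DT replicate 3 lay above HS_SCR replicate 3 for 29 genes and below it for 2, with a median of 0.91. That is 1 library against 1, and genes are not replicates, so the count describes only how those libraries stand.

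Between HS_SCR and 0.4% salt 28 of the 31 genes had a log2 change below 0, with a median of -0.27 (0.02 over all loci). Irf1, Ifi27 and Ifi35 were above 0. Bst2, Ifi44 and Parp14 were below 0 on the log2 scale although their mean FPKM was higher in HS_SCR (208 against 194, 25.4 against 23.9 and 26.1 against 26.0 FPKM). Only Ifih1 was called by limma, lower in HS_SCR, against 4.88% of all loci called lower and 8.20% called higher (13.1% in all). A count of 1 of 31 does not exceed that background, so it is no result about the set. With an unadjusted p under 0.05 there were 7 genes lower in HS_SCR (Ddx58, Ifih1, Stat2, Mx1, Usp18, Herc6 and Dtx3l) and 1 higher (Irf1), against 14.4% and 17.6% of all loci. All HS_SCR libraries lay below all 0.4% salt libraries for Ddx58, Ifih1 and Stat2, as for 14.5% of all loci, and above them for Irf1, as for 19.1%. Without HS_SCR replicate 1 there were 11 genes called lower (Ddx58, Ifih1, Irf7, Ifit2, Mx1, Mx2, Oas1a, Cmpk2, Isg15, Usp18 and Gbp5), against 4.00% of all loci called lower in that fit. Replicate 1 was the highest HS_SCR library for 27 of the 31 genes, so leaving it out lowers their HS_SCR means by construction. Without HS_SCR replicate 2, 0 genes of the set were called, against 2.51% of all loci called lower and 3.93% called higher. Without HS_SCR replicate 3 there were 3 called lower (Ifih1, Trim25 and Dtx3l) and 3 called higher (Bst2, Ifi27 and Ifi35), against 15.7% and 20.5% of all loci. The 3 called lower had their highest HS_SCR value in replicate 3 and the 3 called higher their lowest. Leaving replicate 3 out thus moves their HS_SCR means in these directions by construction. In that fit all HS_SCR libraries are of the lower series and all 0.4% salt libraries of the higher, so series and group cannot be told apart. Within the higher series, HS_SCR replicate 3 lay below the mean of the 0.4% salt libraries for 29 genes and above it for 2, with a median of -0.58. This describes 1 HS_SCR library, the one that lay below the 0.4% salt range for 27 genes.

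Between HS_DT and 0.4% salt 23 genes had a log2 change above 0 and 8 below, with a median of 0.07 (0.01 over all loci). With the number series as a factor the median was -0.09 and 12 genes were above 0. No gene of the set and 0% of all loci were called by limma, with a spread that takes in the HS_SCR libraries. For Bst2 the SE of this change was 0.47, beside a log2 SD of 0.02 in HS_DT, 0.05 in 0.4% salt and 1.19 in HS_SCR libraries. A limma fit of these 2 groups only also called 0 of the 31 genes, and 0.00697% of all loci. In the fit of all 3 groups Irf1 and Xaf1 had an unadjusted p under 0.05, both higher in HS_DT, against 5.20% of all loci (745 of 14338 higher, and 329 lower). All HS_DT libraries lay above all 0.4% salt libraries for 8 genes, Irf1, Ifit2, Bst2, Samhd1, Parp14, Ifi35, Ifi44 and Xaf1, as for 14.2% of all loci. None lay wholly below, against 9.64% of all loci. A moderated F test over the 3 groups called 0 of the 31 genes and 5.61% of all loci; 8 genes had an unadjusted p under 0.05, against 25.2% of all loci. The F test called 7 genes without HS_SCR replicate 1, against 4.78% of all loci in that fit, and 7 without HS_SCR replicate 3, against 27.0%. Without HS_SCR replicate 2 it called 0, against 0.181%.

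**Figure D4:**
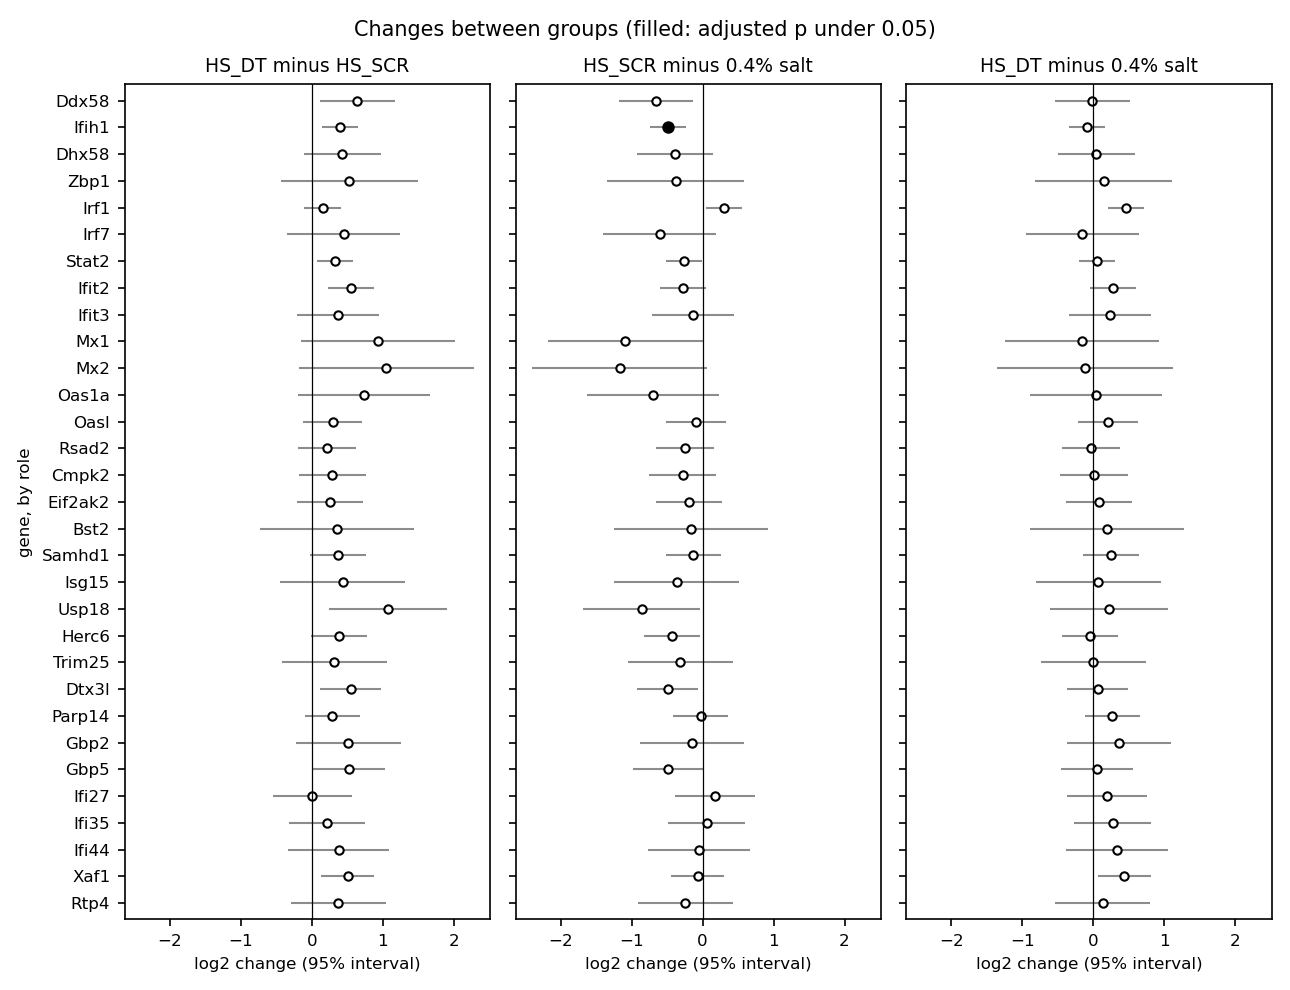
Log2 change with its 95% interval (x axis) for each of the 31 genes (y axis, by role) in HS_DT minus HS_SCR, HS_SCR minus 0.4% salt and HS_DT minus 0.4% salt; filled points have an adjusted p under 0.05. All 31 points of HS_DT minus HS_SCR lie above 0, most intervals cross it, and the sole filled point is Ifih1 in HS_SCR minus 0.4% salt.

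Of the 4 sensors of foreign nucleic acid, Ifih1 was called lower in HS_SCR against 0.4% salt, and the other 3 were called in no comparison. Ifih1 (MDA5, which senses long double-stranded RNA) was listed at 8.99, 8.84 and 10.95 FPKM in HS_DT, at 7.35, 6.16 and 7.64 FPKM in HS_SCR and at 9.76, 10.6 and 10.4 FPKM in 0.4% salt libraries, replicates 1 to 3. The HS_SCR values lay below all the others, and HS_DT overlapped 0.4% salt. Ifih1 fell by 0.49 ± 0.11 (SE) on the log2 scale in HS_SCR against 0.4% salt (95% interval -0.74 to -0.23, adjusted p = 0.0267, limma), and was 0.40 ± 0.11 higher in HS_DT than in HS_SCR (0.14 to 0.65, adjusted p = 0.122, not called). The call was lost without HS_SCR replicate 2 and without each 0.4% salt library in turn, at an adjusted p of up to 0.104, and with the number series as a factor (-0.34, adjusted p = 0.0822). The gene spans bases 55221561 to 55269641 of chromosome 3 in the table (rn5), and its window above holds the response element core at 59 to 50 bases before the start.

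Ddx58 (RIG-I, which senses RNA with a 5′ triphosphate) was listed at 50.8, 42.9 and 71.0 FPKM in HS_DT, 48.4, 28.8 and 28.4 FPKM in HS_SCR and 56.0, 53.0 and 54.1 FPKM in 0.4% salt libraries. HS_SCR replicate 1 lay within the HS_DT range and the other 2 HS_SCR libraries below it. The change was 0.64 ± 0.23 between HS_DT and HS_SCR (0.12 to 1.17, adjusted p = 0.190) and -0.66 ± 0.23 between HS_SCR and 0.4% salt (-1.18 to -0.13, adjusted p = 0.0914, limma). Dhx58 (LGP2, a regulator of both sensors) was listed at 8.86 to 9.45 FPKM in HS_DT, 4.00 to 9.86 in HS_SCR and 8.36 to 9.62 in 0.4% salt libraries. Zbp1, a sensor of Z-form nucleic acid, stood out by a single library, at 0.808 FPKM in HS_SCR replicate 3 against 4.14 to 5.75 FPKM in the other 8 libraries.

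Of the transcription factors, Irf1 was apart from the set. Irf1, an early target of interferon gamma signalling, was listed at 49.6, 44.2 and 37.2 FPKM in HS_DT, 41.6, 35.6 and 39.8 FPKM in HS_SCR and 30.2, 32.1 and 31.9 FPKM in 0.4% salt libraries. All 6 high-salt libraries lay above the 3 libraries at 0.4% salt, and HS_DT overlapped HS_SCR. The change was 0.15 ± 0.11 between HS_DT and HS_SCR (adjusted p = 0.490), 0.30 ± 0.11 between HS_SCR and 0.4% salt (0.05 to 0.56, adjusted p = 0.103) and 0.45 ± 0.11 between HS_DT and 0.4% salt (0.20 to 0.71, unadjusted p = 0.00308, adjusted p = 0.371, limma). Its window above held the gamma-activated site core and no response element core.

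Stat2, which acts together with Irf9, was listed at 26.5, 25.3 and 27.2 FPKM in HS_DT, 24.3, 21.3 and 17.5 FPKM in HS_SCR and 25.1, 25.3 and 25.4 FPKM in 0.4% salt libraries. The HS_SCR libraries lay below all others, by 0.32 ± 0.11 for HS_DT minus HS_SCR (adjusted p = 0.180) and -0.27 ± 0.11 for HS_SCR minus 0.4% salt (adjusted p = 0.141, limma), neither called. Irf7, the factor that amplifies type I interferon production, was listed at 32.3, 27.2 and 44.7 FPKM in HS_DT, 46.2, 20.4 and 15.7 FPKM in HS_SCR and 39.3, 40.7 and 34.4 FPKM in 0.4% salt libraries. HS_SCR thus held both the highest library and the lowest 2.

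Among the antiviral effectors, Mx2, Mx1, Bst2 and Oas1a varied more than 4-fold between HS_SCR rats, and none of the 11 tested was called. Mx2, a dynamin-like antiviral GTPase, was listed at 20.4, 16.5 and 27.1 FPKM in HS_DT, 27.2, 7.99 and 3.71 FPKM in HS_SCR and 20.2, 24.1 and 24.4 FPKM in 0.4% salt libraries. HS_SCR replicate 1 was the highest of all 9 and replicates 2 and 3 the lowest. The change was 1.05 ± 0.54 between HS_DT and HS_SCR (-0.19 to 2.28, adjusted p = 0.332) and -1.17 ± 0.54 between HS_SCR and 0.4% salt (-2.40 to 0.07, adjusted p = 0.174, limma). Its neighbour Mx1 had the same order among the HS_SCR libraries, at 16.7, 13.7 and 22.1 FPKM in HS_DT, 21.0, 7.68 and 3.57 FPKM in HS_SCR and 17.5, 21.2 and 19.4 FPKM in 0.4% salt libraries. Oas1a, which makes the messenger that activates RNase L, was listed at 11.7 to 19.5 FPKM in HS_DT, at 18.3, 6.98 and 4.34 FPKM in HS_SCR and at 13.6 to 14.6 FPKM in 0.4% salt libraries.

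Bst2 and Ifit2 had other patterns. Bst2 was listed at 219, 224 and 219 FPKM in HS_DT, 318, 239.9 and 67.0 FPKM in HS_SCR and 187, 200.3 and 194 FPKM in 0.4% salt libraries. The first 2 HS_SCR libraries lay above every other library and the third below, so that the group means were close, 221 ± 2.82, 208 ± 129 and 194 ± 6.43 FPKM (SD, n = 3) in HS_DT, HS_SCR and 0.4% salt libraries. Its change between HS_SCR and 0.4% salt was -0.17 ± 0.47 (adjusted p = 0.834) with all libraries and 0.51 without HS_SCR replicate 3 (adjusted p = 0.0119, limma). Ifit2, which binds viral RNA and limits its translation, was listed at 20.1, 18.9 and 21.0 FPKM in HS_DT, 17.4, 11.6 and 11.8 FPKM in HS_SCR and 15.7, 16.6 and 16.7 FPKM in 0.4% salt libraries. All HS_DT libraries lay above all others, and the change between HS_DT and HS_SCR, 0.55 ± 0.14 (0.22 to 0.87, adjusted p = 0.106, limma), had the smallest p of the set in that comparison without being called.

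Ifit3, at 7.32 to 14.8 FPKM in the HS_SCR libraries, had overlapping groups in every comparison. The same was true of Oasl, Rsad2 (viperin, which makes a chain-terminating nucleotide), its neighbour Cmpk2 (a mitochondrial nucleotide kinase) and Eif2ak2 (PKR, the kinase that halts translation on double-stranded RNA). Their log2 changes between HS_DT and HS_SCR were 0.22 for Rsad2, 0.26 for Eif2ak2, 0.29 for Cmpk2, 0.30 for Oasl and 0.37 for Ifit3, none called by limma. Samhd1, which degrades deoxynucleotides, was listed at 9.26, 9.45 and 9.89 FPKM in HS_DT, above all HS_SCR libraries (7.77, 9.02 and 5.12 FPKM) and all 0.4% salt libraries (6.92, 8.49 and 8.36 FPKM), and was not called. Ifit1 was listed at 0 to 0.204 FPKM in HS_DT, 0.0887 to 0.296 FPKM in HS_SCR and 0.0869 to 0.198 FPKM in 0.4% salt libraries.

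In the ubiquitin-like and ubiquitin system, Isg15, the modifier that is attached to newly made proteins, was listed at 39.3, 26.3 and 42.2 FPKM in HS_DT, 53.4, 19.6 and 16.2 FPKM in HS_SCR and 33.0, 35.7 and 32.0 FPKM in 0.4% salt libraries. Usp18, which removes Isg15 and restrains the interferon receptor, was listed at 14.1, 9.19 and 14.3 FPKM in HS_DT, 10.4, 5.19 and 2.57 FPKM in HS_SCR and 10.1, 10.5 and 10.9 FPKM in 0.4% salt libraries. Usp18 had the largest change of the set between HS_DT and HS_SCR, 1.08 ± 0.36 (0.25 to 1.91, adjusted p = 0.173), and -0.86 ± 0.36 between HS_SCR and 0.4% salt (adjusted p = 0.143, limma). For Isg15 the changes were 0.44 ± 0.39 and -0.37 ± 0.39, with intervals that cross 0. Herc6, an Isg15 ligase in rodents, was listed at 5.46 to 6.97 FPKM in HS_DT, 3.28 to 5.56 FPKM in HS_SCR and 5.22 to 6.80 FPKM in 0.4% salt libraries.

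The ubiquitin ligases Trim25 and Dtx3l ordered the HS_SCR rats the other way. Trim25, which acts on RIG-I, was listed at 18.8, 21.5 and 30.1 FPKM in HS_DT, 13.2, 13.8 and 33.3 FPKM in HS_SCR and 20.9, 25.3 and 23.1 FPKM in 0.4% salt libraries. Dtx3l was listed at 8.84, 10.3 and 11.5 FPKM in HS_DT, 5.91, 5.19 and 9.36 FPKM in HS_SCR and 8.89, 9.96 and 10.3 FPKM in 0.4% salt libraries. For both genes the low HS_SCR libraries were replicates 1 and 2, which belong to the lower number series. The change of Dtx3l was 0.55 ± 0.19 between HS_DT and HS_SCR (adjusted p = 0.175) and -0.49 ± 0.19 between HS_SCR and 0.4% salt (adjusted p = 0.113, limma). Parp14, an ADP-ribosyltransferase, was listed at 30.4 to 33.3 FPKM in HS_DT, 18.7 to 31.5 FPKM in HS_SCR and 24.5 to 28.2 FPKM in 0.4% salt libraries.

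The guanylate-binding proteins, GTPases that attack the membranes of intracellular microbes and respond above all to interferon gamma, did not share a single order. Gbp2 was listed at 56.2, 60.3 and 40.8 FPKM in HS_DT, 60.3, 35.7 and 21.2 FPKM in HS_SCR and 36.2, 41.5 and 42.4 FPKM in 0.4% salt libraries. Gbp5 was listed at 12.7, 12.2 and 9.15 FPKM in HS_DT, 10.9, 5.23 and 7.24 FPKM in HS_SCR and 11.3, 11.2 and 10.1 FPKM in 0.4% salt libraries. HS_SCR replicate 1 was the highest of its group for both, and the lowest was replicate 3 for Gbp2 and replicate 2 for Gbp5. Between HS_DT and HS_SCR their changes were 0.52 ± 0.32 and 0.53 ± 0.22 (adjusted p = 0.413 and 0.243, limma).

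Among the other induced proteins Ifi27, the most abundant of the set, was listed at 284, 248 and 291 FPKM in HS_DT, 379, 308 and 172 FPKM in HS_SCR and 233, 237 and 249.9 FPKM in 0.4% salt libraries. HS_SCR replicates 1 and 2 were the highest of all and replicate 3 the lowest, and the change between HS_DT and HS_SCR was 0.01 ± 0.25 (-0.55 to 0.57, adjusted p = 0.988, limma). Ifi35 and Ifi44 also had their lowest HS_SCR value in replicate 3, at 12.2 and 12.7 FPKM, beside 18.5 FPKM or more in every other library. Rtp4, a chaperone of receptors, was listed at 12.3 to 17.4 FPKM in HS_DT, 6.67 to 18.6 FPKM in HS_SCR and 13.3 to 14.3 FPKM in 0.4% salt libraries. Xaf1, a promoter of apoptosis, was listed at 21.7, 18.0 and 24.1 FPKM in HS_DT, 19.1, 13.3 and 12.1 FPKM in HS_SCR and 15.4, 15.1 and 15.6 FPKM in 0.4% salt libraries. Its HS_DT libraries lay above all 0.4% salt libraries, by 0.43 ± 0.16 (adjusted p = 0.581, limma).

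**Figure D5:**
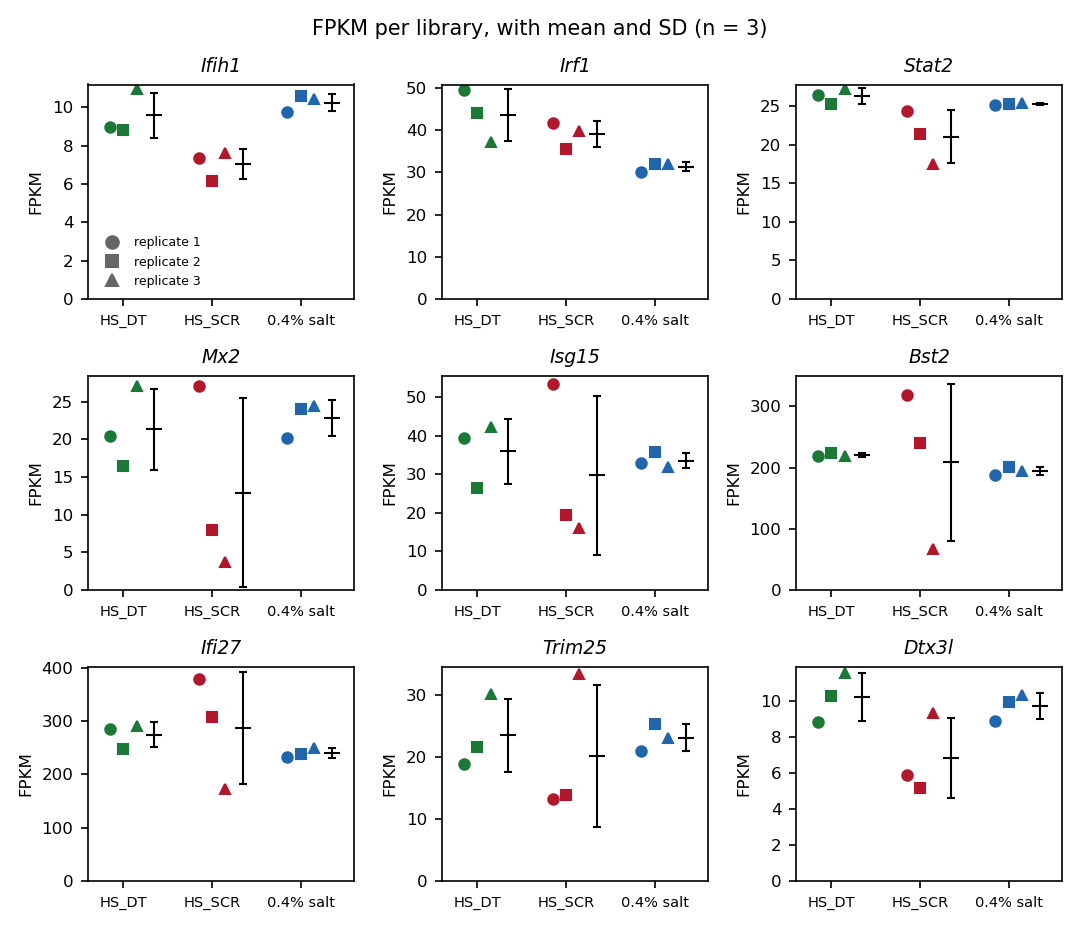
FPKM (y axis, from 0) of Ifih1, Irf1, Stat2, Mx2, Isg15, Bst2, Ifi27, Trim25 and Dtx3l in each library of HS_DT, HS_SCR and 0.4% salt; marker shapes give the replicate, and bars the mean ± SD (n = 3). For Mx2, Isg15, Bst2 and Ifi27 HS_SCR replicate 1 is the highest point of the panel, while for Trim25 and Dtx3l HS_SCR replicate 3 is the highest of its group.

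The rest of the interferon pathway was followed through 135 other genes, of which 110 were found and 96 tested. Of the 12 interferons listed, 9 were found and none reached a mean of 1 FPKM: Ifna1, Ifna4, Ifna5, Ifna16l1 and Ifnl3 were listed at 0 in all 9 libraries, Ifnb1 at 0.0935 FPKM in HS_DT replicate 2 and at 0 elsewhere, and Ifng at up to 0.362 FPKM, in HS_SCR replicate 3. Between HS_SCR and 0.4% salt 11 of the 96 genes were called higher and 4 lower, against 8.20% and 4.88% of all loci; counts with each library left out in turn ran from 3 to 29 higher and from 2 to 9 lower, beside 1.81% to 20.5% and 0.601% to 15.7% of all loci in the same fits. None of the 96 was called in the comparisons with HS_DT by limma, where 27 against HS_SCR (17 higher and 10 lower in HS_DT) and 10 against 0.4% salt (all higher) had an unadjusted p under 0.05. Over all loci the shares were 19.1% and 7.49%. Those with the smallest p of their list between HS_DT and 0.4% salt were all higher in HS_DT, at 0.43 ± 0.09 for Ifngr2, 0.34 ± 0.08 for Myd88, 0.33 ± 0.10 for Irf2, 0.54 ± 0.22 for Socs3 and 0.35 ± 0.10 for Plscr1 (adjusted p from 0.314 to 0.615, limma).

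Both chains of the interferon gamma receptor rose in HS_SCR against 0.4% salt, while most of the set lay lower there. Ifngr1 was listed at 104, 149 and 109 FPKM in HS_SCR and at 58.6, 63.3 and 67.0 FPKM in 0.4% salt libraries, a change of 0.91 ± 0.13 (adjusted p = 0.00741), and Ifngr2 averaged 19.6 FPKM in HS_SCR and 12.7 FPKM in 0.4% salt libraries (0.60 ± 0.09, adjusted p = 0.00778, limma). Neither group overlapped the other for either gene. Ifngr1 averaged 79.3 FPKM in HS_DT and 121 FPKM in HS_SCR (-0.58 ± 0.13, adjusted p = 0.0812, not called). The other 5 receptor and kinase genes tested were not called, nor were the 9 other transcription factors tested.

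Of the 14 genes for sensing and relay, Tlr3, the endosomal receptor of double-stranded RNA, fell and Myd88, an adaptor of Toll-like receptors, rose in HS_SCR against 0.4% salt. Tlr3 was listed at 25.7, 27.0 and 28.4 FPKM in HS_DT, 18.1, 16.4 and 19.6 FPKM in HS_SCR and 32.7, 32.0 and 27.6 FPKM in 0.4% salt libraries. Its change was -0.74 ± 0.10 between HS_SCR and 0.4% salt (adjusted p = 0.00638) and 0.56 ± 0.10 between HS_DT and HS_SCR (adjusted p = 0.0644, not called, limma). Myd88 averaged 26.9 FPKM in HS_SCR and 20.6 FPKM in 0.4% salt libraries (0.37 ± 0.08, adjusted p = 0.0262). Of 8 inhibitors Socs3, which blocks cytokine receptor kinases, rose, at 25.7, 35.1 and 43.0 FPKM in HS_SCR and 9.89, 13.1 and 16.7 FPKM in 0.4% salt libraries (1.32 ± 0.22, adjusted p = 0.0104, limma); it averaged 19.4 FPKM in HS_DT and 34.6 FPKM in HS_SCR (-0.78 ± 0.22, adjusted p = 0.123, not called).

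The 58 tested genes of the remaining list, which interferon is known to induce in one cell type or another, moved in both directions. In HS_SCR against 0.4% salt 7 were called higher and 3 lower, against 8.20% and 4.88% of all loci. The 4 with the smallest adjusted p were Slfn5, which fell, and Tor3a, Plscr1 and Ifitm3, which rose. Slfn5 was listed at 61.4, 55.8 and 66.5 FPKM in HS_DT, 35.4, 32.8 and 45.9 FPKM in HS_SCR and 76.8, 75.4 and 71.3 FPKM in 0.4% salt libraries (-0.97 ± 0.13 for HS_SCR minus 0.4% salt, adjusted p = 0.00638, and 0.68 ± 0.13 for HS_DT minus HS_SCR, adjusted p = 0.0644, limma). Ifitm3, which keeps virus from fusing with endosomes, averaged 414 FPKM in HS_SCR and 280.4 FPKM in 0.4% salt libraries (0.55 ± 0.11, adjusted p = 0.0162, limma). The changes were 0.51 ± 0.09 for Tor3a (adjusted p = 0.0116) and 0.54 ± 0.10 for Plscr1, a phospholipid scramblase (adjusted p = 0.0150). Of the 15 called pathway genes, Ifngr1, Ifngr2, Tlr3, Socs3 and Slfn5 stayed called with every single library left out. The calls of Myd88, Tor3a, Plscr1 and Ifitm3 were each lost without 0.4% salt replicate 1 and without 0.4% salt replicate 2, and that of Myd88 also without HS_SCR replicate 2 and without HS_DT replicate 2, at an adjusted p of up to 0.102. With the number series as a factor the calls of Myd88 (0.30, adjusted p = 0.0828) and Ifitm3 (0.44, adjusted p = 0.0502) were lost, and quantile normalization lost that of Ifitm3 (0.32, adjusted p = 0.0951).

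Markers of other cells moved with the groups and with the HS_SCR libraries. The summed level of the macrophage markers (15 of 17 found) was 3054 to 3608 FPKM in HS_DT, 4632, 4546 and 3159 FPKM in HS_SCR replicates 1 to 3 and 1889 to 2187 FPKM in 0.4% salt libraries. In HS_SCR against 0.4% salt 8 of these markers were called higher and 1 lower, against 8.20% and 4.88% of all loci. Markers of T and NK cells (15 of 15) summed to 125 to 152 FPKM in HS_DT, 153, 148 and 92.7 FPKM in HS_SCR and 112 to 117 FPKM in 0.4% salt libraries, with none of 9 tested called and Klrb1 under 0.1 FPKM throughout. Plasmacytoid dendritic cell markers (6 of 6) summed to 32.9 to 36.3, 32.8 to 36.5 and 36.2 to 38.8 FPKM in HS_DT, HS_SCR and 0.4% salt libraries. HS_SCR replicate 3, the lowest library for 22 genes of the set within its group, was also the lowest of the group in the sums of macrophage, T and NK cell, neutrophil, erythroid, endothelial, thick ascending limb and proximal tubule markers, and had the lowest mitochondrial share of summed FPKM of the 9 libraries (20.6%, up to 31.9% in the others). Within HS_SCR, the sums of macrophage, T and NK cell, endothelial and erythroid markers followed the order of most of the set. Erythroid markers summed to 10744, 7053 and 1945 FPKM in replicates 1 to 3. Other sums did not have replicate 3 lowest. The lowest was replicate 2 for collecting duct principal cell markers and replicate 1 for B and plasma cell markers. Plasmacytoid dendritic cell markers were highest in replicate 3. The part of these cells in the result was not tested.

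Tubular, blood and endothelial markers differed between groups to unlike degrees. Proximal tubule markers (13 of 15) summed to 1146 to 3741 FPKM in HS_DT, 158, 1707 and 78.9 FPKM in HS_SCR replicates 1 to 3 and 2569 to 5849 FPKM in 0.4% salt libraries, with 6 of 11 tested called lower in HS_SCR against 0.4% salt. All calls given here are of that comparison, in which 4.88% of all loci were called lower and 8.20% higher. Thick ascending limb markers (10 of 10), which mark the labelled tissue and were present in all libraries, summed to 2516 to 3474, 1254 to 3172 and 2827 to 4445 FPKM, with 4 of 10 called lower. Neutrophil markers (11 of 11) summed to 89.3 to 127, 116 to 503 and 34.9 to 39.1 FPKM, with 2 of 5 tested called higher, and erythroid markers (7 of 9) to 2458 to 3318, 1945 to 10744 and 769 to 1132 FPKM, with 5 of 6 called higher, in the same order of groups. B and plasma cell markers (9 of 10, Cd79a under 0.1 FPKM in all libraries) summed to 20.6 to 24.6, 23.8 to 38.9 and 19.0 to 21.6 FPKM, with 2 of 3 tested called higher. Endothelial markers (12 of 12) summed to 482 to 663, 480.0 to 642 and 507 to 588 FPKM, with 2 called higher, and collecting duct principal cell markers (8 of 8) to 887 to 1532, 1271 to 1820 and 739 to 1457 FPKM, with none called. HS_SCR replicate 1, the highest for 27 genes of the set within its group, had low proximal tubule markers like replicate 3, while replicate 2 had the highest of the group. The part of these cells in the result was not tested.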

How the data were processed

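RNA of the renal outer medulla was measured by RNA sequencing in 9 libraries, 1 per rat. The authors deposited FPKM for 30315 loci. Per the submitters' processing notes, Cufflinks 2.2.1, Trim Galore 0.2.5 and build rn5 were used. The aligner, the annotation and any scaling of libraries were not given in the sources used here. Libraries were matched to columns by the number in their titles, and 1 column that repeats another at all loci was not used. FPKM hides absolute depth, so no counting interval is given.

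Values were tested as log2(FPKM + 1), which understates changes of low genes, for the 14338 loci averaging 1 FPKM or more. A single limma-trend fit (limma 3.58.1, R 4.3.3) of the 3 groups had 6 residual degrees of freedom (8.54 after moderation). Tests were two-sided, with Benjamini-Hochberg adjustment over all loci tested, and the fit was tested on simulated data. The members and lists were chosen with earlier results of these data known. All 34 members are named; from each pathway list, up to 4 called genes with the smallest adjusted p, or the 1 with the smallest p, are named for each comparison; a gene that was also to be named is not reported here. Alternatives were pseudocounts of 0.1 and 0.5 FPKM, filters, rescaling, quantile normalization, robust moderation, library weights, fits of 2 groups, a replicate block, the number series, and leaving out each library. The alternatives of the F test and of the pathway genes were chosen after seeing the data.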

Additional observations from a re-analysis of the deposited data

How the results depend on the processing

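The number of interferon-stimulated genes called by limma depended on the libraries and settings of the fit. For HS_DT minus HS_SCR, 0 genes were called, 2 (Ifit2 and Dtx3l) with library weights (10.4% of all loci), and 0 to 4 with a library left out. For HS_SCR minus 0.4% salt, 1 was called, 0 without a filter, in a fit of the 2 groups only and with the number series as a factor, 2 (Ifih1 and Dtx3l) with library weights (28.0% of all loci), and 0 to 11 with a library left out. In that comparison 0 were called without HS_SCR replicate 2 and without each 0.4% salt library in turn, and 11 without HS_SCR replicate 1. For HS_DT minus 0.4% salt, 0 were called, 3 (Irf1, Parp14 and Gbp2) with library weights (12.6% of all loci), and 0 with any library left out. The F test called 0, 5 with library weights (27.4% of all loci), and 0 to 7 with a library left out. Other alternatives gave the same counts. The cause was not tested. The reversed value was Bst2 in HS_SCR minus 0.4% salt, at 0.51 without HS_SCR replicate 3 (-0.61 to 0.51 over the left-out libraries). The labels do not say whether the replicate numbers pair rats. Residuals of same-numbered libraries correlated at -0.0762 to 0.259, above 0.1 in 5 of 9 pairs, and those of other pairs at -0.307 to 0.243. With a replicate block 0, 1 and 0 genes were called in the 3 comparisons, in the order above. Of 1857 values of single genes under the alternatives, 1741 kept direction and call, 7 lost the call, 27 gained one and 81 uncalled changes changed sign. The median change ran from 0.19 to 0.69 for HS_DT minus HS_SCR (26 to 31 genes above 0), from -0.52 to -0.10 for HS_SCR minus 0.4% salt and from -0.09 to 0.18 for HS_DT minus 0.4% salt, with medians of all loci from -0.03 to 0.05. Among pathway genes in HS_SCR minus 0.4% salt, library weights called 26 higher and 7 lower (28.0% of all loci in both directions) and a fit of the 2 groups only 4 and 2 (3.25%). With 3 rats a group, most 95% intervals of single genes cross 0.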

Other observations

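Irf9 and Parp9 had values only in rows that join several genes. The row of Irf9 with Rnf31 was listed at 33.7, 32.4 and 37.3 FPKM in HS_DT, 33.5, 33.6 and 25.8 FPKM in HS_SCR and 29.0, 30.2 and 30.7 FPKM in 0.4% salt libraries. The row of Parp9 with Kpna1 was listed at 38.6, 37.1 and 37.8 FPKM in HS_DT, 46.6, 40.7 and 30.7 FPKM in HS_SCR and 32.5 to 36.9 FPKM in 0.4% salt libraries. In both rows HS_SCR replicate 3 was the lowest of the 9 libraries. A second, lower row named Ddx58 at the same locus was listed at 3.07, 2.03 and 2.68 FPKM in HS_DT, 2.64, 4.72 and 4.67 FPKM in HS_SCR and 2.06, 2.09 and 2.17 FPKM in 0.4% salt libraries. There HS_SCR replicates 2 and 3 were the highest of the 9 libraries, while they were the lowest in the main Ddx58 row. The second rows of Isg15 and Mx2 had means of 2.54 and 1.14 FPKM.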
